A study of Mus musculus with 18 samples.

Results

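The genes described here are 39 genes of interferon signaling and the interferon response, taken in mouse liver macrophages (LMs). An open region was counted for a gene when its midpoint lay in the gene body or within 5 kb of either end, in the mm9 genome build with the GENCODE annotation of that build. All 39 genes were in the annotation, and together they held 157 of the 69499 open regions that were deposited. The assay was fast-ATAC-Seq. A transposase, Tn5, cuts DNA that is not packed away and leaves sequencing adapters at the cuts, so that reads pile up where chromatin is open. Each reaction held 50000 LMs, and 18 libraries were made, with 3 replicates for each of 3 genotypes at zeitgeber time (ZT) 10 and at ZT22.

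All animals were male C57BL/6J mice that carried floxed alleles, were injected with an adeno-associated virus (AAV) at 8 weeks of age, and were then kept for 4 weeks on a high-fat, high-sucrose diet (HFHSD). Control mice received AAV-TBG-GFP. *Reverb*-hDKO mice (ReverbhDKO in the labels) received AAV-TBG-CRE and lost *Rev-erbα* and *Rev-erbβ*, and *Reverb/Scap*-hTKO mice (Reverb/ScaphTKO) lost *Scap* as well. The TBG promoter is active in hepatocytes, so the genes were deleted in hepatocytes and not in the LMs from which the chromatin came. The deposited list joins the regions of all these libraries and gives for each region a chromosome, a start, and an end. It holds no value for a library, so the depth is unknown, no spread between replicates can be given, and no genotype or time of day was compared for any gene. A region open in few cells or few libraries and a region open in all of them cannot be told apart in this list.

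Type I interferons bind a receptor pair at the cell surface and activate the kinases JAK1 and TYK2, which phosphorylate STAT proteins. STAT2 joins IRF9 in the complex ISGF3, which binds the interferon-stimulated response element (ISRE), a pair of GAAA repeats in front of antiviral genes, while type II interferon acts through the gamma-activated site (GAS). LMs, most of which are Kupffer cells in a healthy liver, meet microbes and their products from the gut and carry receptors for both types of interferon.

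At most of these genes a start was open. A gene was taken to have an open start when a region overlapped the 1000 bp on either side of any of its annotated transcription starts. This held for 33 of the 39 genes (84.6%, 95% Wilson confidence interval 70.3% to 92.8%, which covers counting error only), while it held for 57% of the 22380 protein-coding genes of the annotation. With any region in the gene or within 5 kb there were 37 of 39 genes (94.9%), beside 70.8% of protein-coding genes. The genes were chosen with results of these data known, so the shares are set side by side as a description and were not tested.

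**Figure D1:**
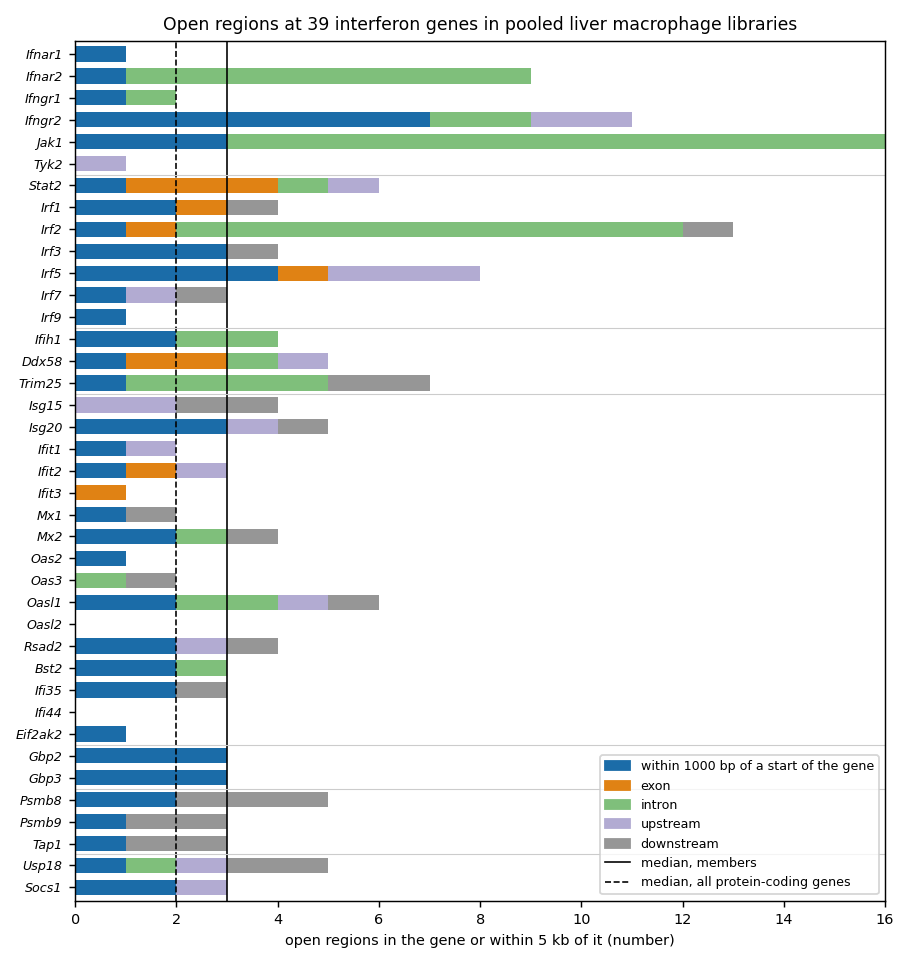
The horizontal axis gives the number of open regions in each gene or within 5 kb of it, with the 39 genes grouped by role from top to bottom and colors for the place of a region relative to that gene. The solid line is the median of the 39 genes, 3 regions, and the dashed line the median of all protein-coding genes, 2 regions. *Jak1*, with 16, and *Irf2*, with 13, reach farthest to the right, and *Oasl2* and *Ifi44* have no bar.

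Among the genes with an open start, a 301 bp window was taken around the midpoint of the region nearest the first base. The sequence to which ISGF3 and the interferon regulatory factors bind was in this window in 6 of 11 antiviral effectors and in both feedback genes. It was there in 2.57% of 11963 protein-coding genes. At *Oasl1* it lay in the window but outside the region itself. This ISRE core was searched for as GAAANNGAAA on both strands. The sequences below were read from mm9 along the strand of each gene, 5′ to 3′, and are shown because they are the parts outside annotated exons of the open start regions that hold the core. Capitals mark the core, with the CT that completes a fuller element where it follows, so that an element on the other strand reads as AGTTTC followed by TTTC. The lines give, in order, *Usp18* (chr6:121195821-121195923, plus strand), *Ifit1* (chr19:34715234-34715360, plus), *Oas2* (chr5:121199863-121200053, minus), *Bst2* (chr8:74061347-74061602, minus), *Mx2* (chr16:97756653-97756908, plus), *Rsad2* (chr12:27141330-27141509, minus), and *Socs1* (chr16:10785630-10785882, minus).
Usp18: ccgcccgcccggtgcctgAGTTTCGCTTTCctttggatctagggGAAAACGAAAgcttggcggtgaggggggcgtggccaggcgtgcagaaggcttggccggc
Ifit1: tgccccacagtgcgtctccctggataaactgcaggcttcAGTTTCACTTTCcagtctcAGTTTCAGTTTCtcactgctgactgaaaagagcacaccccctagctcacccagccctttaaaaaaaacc
Oas2: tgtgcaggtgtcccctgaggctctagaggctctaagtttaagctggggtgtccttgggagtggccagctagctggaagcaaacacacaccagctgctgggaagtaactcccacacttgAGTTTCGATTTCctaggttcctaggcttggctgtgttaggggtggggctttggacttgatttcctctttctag
Bst2: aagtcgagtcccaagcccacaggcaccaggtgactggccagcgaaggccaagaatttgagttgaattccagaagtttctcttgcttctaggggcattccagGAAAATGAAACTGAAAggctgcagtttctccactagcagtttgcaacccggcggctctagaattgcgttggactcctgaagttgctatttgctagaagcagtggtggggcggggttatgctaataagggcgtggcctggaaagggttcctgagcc
Mx2: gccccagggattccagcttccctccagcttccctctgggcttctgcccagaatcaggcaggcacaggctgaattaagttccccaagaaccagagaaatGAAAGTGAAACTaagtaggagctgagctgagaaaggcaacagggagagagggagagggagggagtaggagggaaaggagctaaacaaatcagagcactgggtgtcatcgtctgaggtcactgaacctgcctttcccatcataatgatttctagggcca
Rsad2: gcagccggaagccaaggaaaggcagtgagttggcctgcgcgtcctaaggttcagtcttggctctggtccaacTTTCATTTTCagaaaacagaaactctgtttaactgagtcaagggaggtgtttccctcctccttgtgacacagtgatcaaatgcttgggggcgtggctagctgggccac
Socs1: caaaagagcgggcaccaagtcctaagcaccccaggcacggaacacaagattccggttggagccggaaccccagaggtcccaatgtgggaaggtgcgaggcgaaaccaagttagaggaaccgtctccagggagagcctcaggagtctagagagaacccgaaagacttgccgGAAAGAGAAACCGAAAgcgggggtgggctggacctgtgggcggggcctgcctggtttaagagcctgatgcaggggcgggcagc

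Each of these stretches except that of *Mx2* lies directly upstream of its gene. In *Usp18*, which encodes the protease that removes ISG15 from proteins and restrains the type I receptor, 2 cores lie at -78.5 and -54.5 bp from the first base, the farther one on the opposite strand with CT. In *Ifit1*, whose protein binds foreign RNA without the host's cap methylation, both cores (-81.5 and -62.5 bp) are followed by CT. In *Bst2*, which encodes tetherin, and in *Socs1*, an inhibitor of JAK kinases, 2 cores overlap each other and share a GAAA. The *Mx2* region lies farther out, with its midpoint at -909.5 bp, and a separate open region of 226 bp at -55.5 bp held no core.

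**Figure D2:**
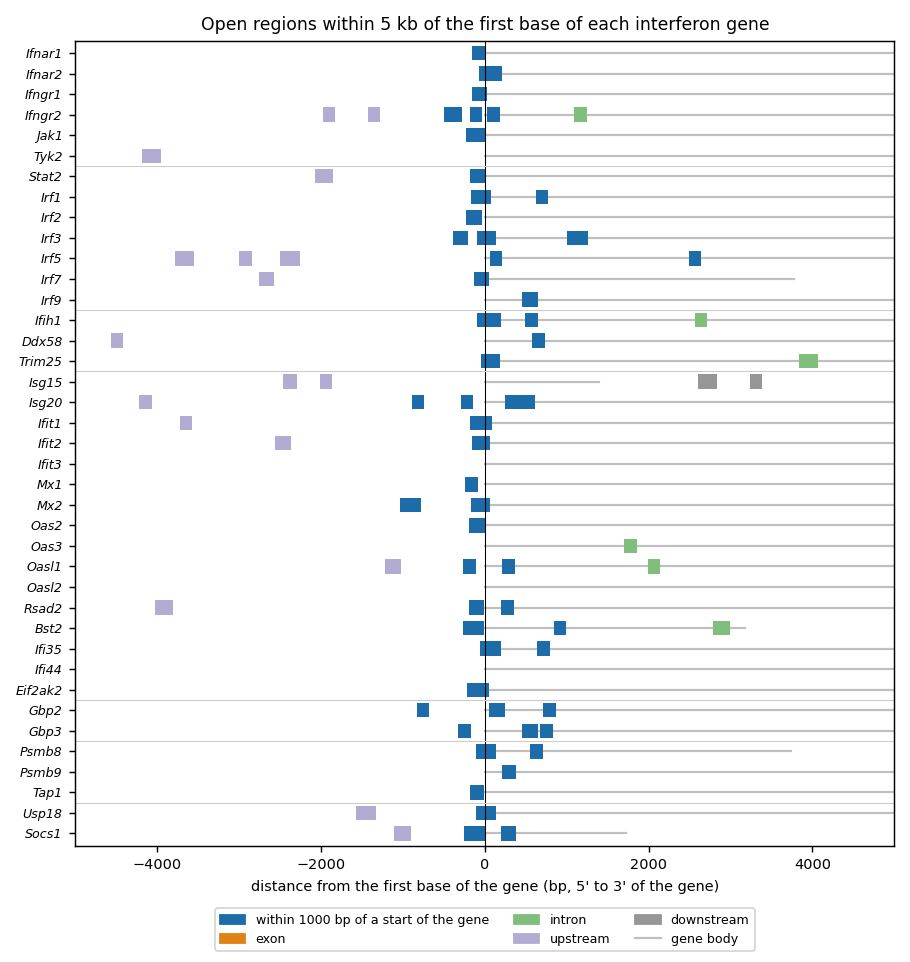
The horizontal axis gives the distance in bp from the first base of each gene, read in the direction of the gene, and each box is an open region drawn to scale and colored by its place relative to that gene. In 33 genes a box lies within 1000 bp of the first base. *Tyk2*, *Isg15*, *Ifit3*, *Oas3*, *Oasl2*, and *Ifi44* have none there.

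The receptors and kinases had 40 regions over 6 genes. *Ifnar1* and *Ifnar2* encode the chains of the type I interferon receptor, and *Ifngr1* and *Ifngr2* those of the type II receptor. All 4 had an open start, with the nearest midpoints at -78.5, 73.5, -66, and -104 bp from the first base. Their numbers of regions differed widely, with 1 at *Ifnar1*, 9 at *Ifnar2*, 2 at *Ifngr1*, and 11 at *Ifngr2*. Of the *Ifnar2* regions 8 were intronic. Of these, 4 lie within 5 kb of *Il10rb*, a receptor gene for interleukin 10 and lambda interferons that begins inside the annotated *Ifnar2* gene. The regions at 33421.5 and 34228.5 bp lay 30.5 and 567.5 bp from an annotated start of another gene, to which they may equally belong. At *Ifngr2*, 7 regions were at an annotated start, with 3 around the first base and 4 between 14208 and 15140 bp into the gene, near annotated starts inside the gene. The widest *Ifngr2* region had 218 bp and the other 10 had 151 bp, the narrowest width at any of the genes and the commonest in the list.

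*Jak1*, which encodes the kinase that both receptors use, had the most regions of all, 16 over 112916 bp. Of these, 3 were at an annotated start and 13 were in introns, from 10968 to 97316 bp into the gene. The region nearest the first base (chr4:100937890-100938112) had its midpoint at -114 bp. *Tyk2*, the partner kinase of the type I receptor, had no open start, and its only region (chr9:20935748-20935968, 221 bp) lay upstream, at -4068 bp. Long genes hold more regions, and per 10 kb of gene and flanks *Jak1* had 1.30 regions, which was the median of the 39 genes. *Ifngr2* had the highest density of any of them, 3.91 per 10 kb, while the median over all protein-coding genes was 0.488.

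Each of the 7 transcription factor genes had an open start. *Stat2* and *Irf9* encode subunits of ISGF3 and had 6 and 1 regions. The *Irf9* region (chr14:56222861-56223060) lay inside the gene, at 552.5 bp, and no region lay closer to its first base. IRF3 and IRF7 switch on the interferon genes once a sensor has fired. *Irf3* had 3 regions at its starts, the nearest at 23 bp, and *Irf7* had 1, at -43.5 bp. *Irf1*, an activator of the type II response, had its nearest region at -49.5 bp, and this region had the highest ratio of CpG observed to expected of any of the genes (1.05).

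*Irf2*, which encodes a repressor of IRF1 targets, had 13 regions over 107714 bp, 1 at its start, 10 in introns, 1 in an exon, and 1 downstream. The regions lay in groups, and 5 of them were between 103082 and 111116 bp from the first base, around the end of the gene. Of these, the widest had 354 bp. Another, intronic at 103082 bp (chr8:47928043-47928320, 102944 to 103221 bp from the first base), held the ISRE core followed by CT and is shown here as the region away from a start, outside exons, with that longer match inside it.
Irf2: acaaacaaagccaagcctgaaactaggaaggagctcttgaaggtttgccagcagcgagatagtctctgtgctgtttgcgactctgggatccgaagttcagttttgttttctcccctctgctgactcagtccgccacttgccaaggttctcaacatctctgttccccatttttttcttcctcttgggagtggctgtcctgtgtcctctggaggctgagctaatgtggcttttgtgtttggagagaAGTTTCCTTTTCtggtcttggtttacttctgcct

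*Irf5*, an activator of inflammatory genes in macrophages, had 8 regions. Of these, 3 lay upstream, at -3666, -2922, and -2380 bp, 4 were at annotated starts, and 1 was in an exon. The upstream region at -3666 bp (chr6:29472844-29473074) held the ISRE core, and the one at -2380 bp held a composite site for an IRF with PU.1, described below. The start region nearest the first base, at 137 bp, held no ISRE core. Its window had the highest GC content among the nearest regions of the genes (79.1%).

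The sensors of viral RNA encoded by *Ifih1* (MDA5) and *Ddx58* (RIG-I), and *Trim25*, a ubiquitin ligase that activates RIG-I, had 4, 5, and 7 regions, and all 3 had an open start. The *Ifih1* start region was the widest nearest region of the 39 genes (289 bp, chr2:62484118-62484406) and held the ISRE core 36.5 bp after the first base. At *Ddx58* the nearest region was at 656 bp. A core with CT lay 9.5 bp after the *Ddx58* first base, outside any region. *Trim25* had 4 intronic and 2 downstream regions, 1 of them 328 bp wide.

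The antiviral effectors had the lowest share of open starts among the roles, 11 of 16 genes, beside 57% of all protein-coding genes. With so few genes the difference is uncertain, and it was not tested. The other roles had only 2 to 7 genes each. The effectors had 40 regions and a median of 2.5 per gene, beside 2 over all protein-coding genes. Open were *Isg20* (an exonuclease for viral RNA), *Ifit1*, *Ifit2*, *Mx1* and *Mx2* (genes of the dynamin-like GTPase family), and *Oas2* (which makes the messenger that activates RNase L). Also open were *Oasl1*, *Rsad2* (viperin, which makes a chain terminator of viral RNA), *Bst2*, *Ifi35*, and *Eif2ak2* (PKR, which stops translation). The nearest midpoints of these 11 genes lay between -221 bp at *Isg20* and 70.5 bp at *Ifi35*. *Isg20* also held the widest region at any of the genes, 361 bp with its midpoint at 433 bp (chr7:86058563-86058923), with a core followed by CT.

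Of the 5 effectors without an open start, *Ifi44* and *Oasl2* had no region at all within 5 kb. The nearest midpoints to their first bases were at -87533 bp for *Ifi44* and at -9930 bp for *Oasl2*. *Isg15*, the ubiquitin-like modifier that is joined to proteins after interferon, had 4 regions, all outside the gene. Those upstream, at -1935 and -2381 bp, lay 551 and 105 bp from an annotated start of another gene, and those downstream lay within 5 kb of *Agrn*. *Ifit3* had 1 region, in an exon at 5063 bp. *Oas3* had 1 in an intron, at 1780 bp, and its second is the start region of *Oas2* (chr5:121199852-121200053, 202 bp), which lies downstream of *Oas3* on the same strand.

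Some of the starts without an open region held the ISRE core. The promoter, from 250 bases before to 50 after the first base, held the core in *Isg15*, *Ifit3*, and *Oas3*, which is 3 of the 6 genes without an open start, and in 12 of the 33 genes with one. These 3 promoters were chosen for display after their values had been seen. They are shown outside exons for *Isg15* (chr4:155574928-155575027, minus strand), *Ifit3* (chr19:34657848-34658020, plus), and *Oas3* (chr5:121227671-121227770, minus), with no open region in any of them.
Isg15: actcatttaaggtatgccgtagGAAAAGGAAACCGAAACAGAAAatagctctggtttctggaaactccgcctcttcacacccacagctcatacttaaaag
Ifit3: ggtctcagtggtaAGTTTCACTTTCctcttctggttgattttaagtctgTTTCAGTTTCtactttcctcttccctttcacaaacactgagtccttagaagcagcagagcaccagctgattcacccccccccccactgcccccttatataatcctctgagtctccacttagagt
Oas3: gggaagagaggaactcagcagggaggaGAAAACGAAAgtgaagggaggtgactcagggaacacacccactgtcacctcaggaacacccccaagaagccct

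The *Isg15* promoter held 3 overlapping cores, at -61.5, -67.5, and -73.5 bp, as close to the first base as the cores in the open regions of *Usp18* and *Socs1*. *Ifit3* held 2, at -153.5 bp with CT and at -119.5 bp. *Oas3* held 1, at -68.5 bp. Whether these starts are closed in LMs, or open too weakly to be called in the merged reads, cannot be told apart without counts.

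The guanylate-binding protein genes *Gbp2* and *Gbp3*, whose GTPases attack membranes around intracellular microbes, had 3 regions each, all within 1000 bp of a start. At *Gbp2* the nearest region was at 146.5 bp and its core with CT lay 6.5 bp after the first base, outside the region. At *Gbp3*, 2 cores with CT at -48.5 and -42.5 bp lay between regions, and 1 core at 487.5 bp lay inside one.

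The antigen processing genes *Psmb8* and *Psmb9*, for subunits of the immunoproteasome, and *Tap1*, for a peptide transporter, lie side by side on chromosome 17 and shared regions. A region of 171 bp (chr17:34324321-34324491) was nearest to the first base of both *Tap1*, at -92 bp, and *Psmb9*, at 291 bp, which run in opposite directions. It lies wholly in an annotated exon, so its sequence is not printed. The 2 start regions of *Psmb8* (246 and 151 bp) also counted for *Tap1*, as downstream regions. With the region of *Oas2* and *Oas3*, 4 regions were shared by a pair of the genes, so that 157 regions made 161 pairs of gene and region. A further point of overlap is that 50 regions (31.8%) lay within 5 kb of another protein-coding gene, to which they may equally belong.

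The feedback genes *Usp18* and *Socs1* had 5 and 3 regions, both with an open start. The nearest regions, at 14 bp (chr6:121195821-121196055) and at -121 bp (chr16:10785618-10785882), were 235 and 265 bp wide, and both held the core.

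Over the 60 regions within 1000 bp of a start of one of the 39 genes, the ISRE core was found in a 301 bp window around the midpoint in 15 (25.0%, 95% Wilson interval 15.8% to 37.2%). It was found in 2.71% of the 19628 regions at the starts of protein-coding genes. Followed by CT, it was in 7 of 60 (11.7%), at *Bst2*, *Gbp2*, *Ifit1*, *Isg20*, *Mx2*, *Oas2*, and *Usp18*, beside 0.352% of all start regions. Counted in the window of 1 region per gene, the nearest to the first base, the core was in 11 of 33 genes (33.3%), and in 2.57% of 11963 protein-coding genes. At *Gbp2*, *Oasl1*, and *Irf2* it lay in this window but outside the region. *Mx1*, *Ifit2*, and *Ifi35* had no core in any start region, and the 5 receptors and kinases had none in the nearest one. Of the 7 transcription factor genes only *Irf2* had it.

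Away from starts the shares lay closer together. Of the 84 regions over 1000 bp from every annotated start, 8 had the core in the 301 bp window (9.52%, 4.91% to 17.7%), beside 4.24% of 48468 such regions in the whole list. These 8 were 2 at *Irf2*, 2 at *Rsad2*, and 1 each at *Irf5*, *Ifit2*, *Mx2*, and *Usp18*. Inside the region itself the core was found in 5 (5.95%), beside 2.49%. With CT following, the window held it in 3 (3.57%), beside 0.454%. The 13 regions that lay within 1000 bp of the start of a gene outside the list were left out of both counts.

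**Figure D3:**
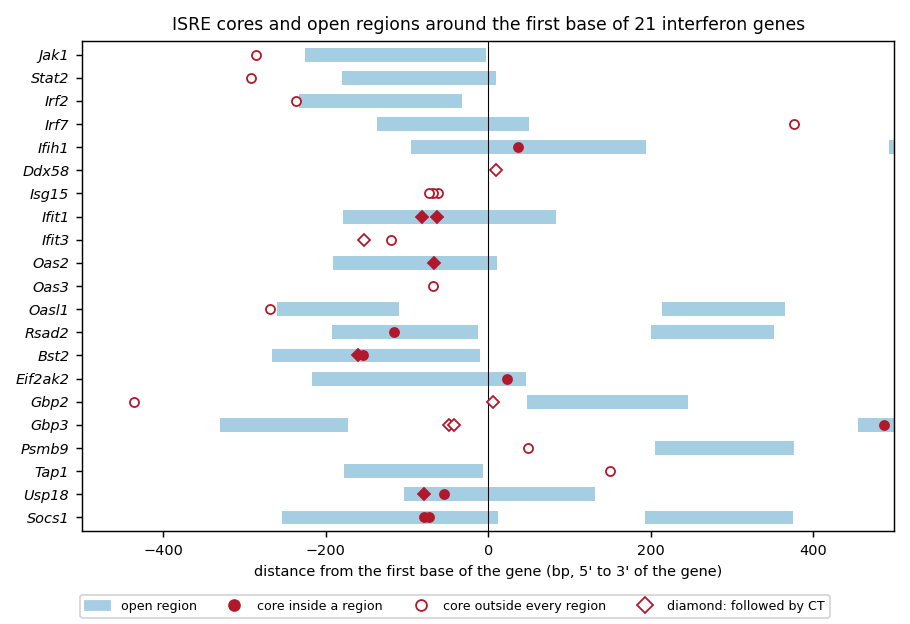
The horizontal axis gives the distance in bp from the first base of the gene, for the 21 genes with an ISRE core within 500 bp of it. Bars are open regions, filled symbols are cores inside one, open symbols are cores outside every region, and diamonds are cores followed by CT. The filled symbols gather just upstream of the first base, where 10 of the 13 cores inside a region lie, and those of *Isg15*, *Ifit3*, and *Oas3* are open symbols at like distances.

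Within 500 bp of the first base, 31 pairs of gene and core were found in 21 of the 39 genes, from 30 distinct cores, since *Psmb9* and *Tap1* share 1. Of the pairs 13 (41.9%) had the core inside an open region. Over all protein-coding genes this was the case for 241 of 3028 pairs (7.96%). The 13 cores belong to 9 genes (23.1% of 39), namely *Ifih1*, *Ifit1*, *Oas2*, *Rsad2*, *Bst2*, *Eif2ak2*, *Gbp3*, *Usp18*, and *Socs1*, while 0.996% of protein-coding genes had a core in such a place. Their centers lay between -160.5 and 487.5 bp, with a median of -72.5 bp, and 10 of them lay within 150 bp of the first base. In the promoter of 250 bases before to 50 after the first base, whether open or not, 15 of 39 genes held the core (38.5%, 24.9% to 54.1%), and 3.78% of protein-coding genes did. With CT there were 8 (20.5%), beside 0.398%.

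Other short motifs were searched for on both strands in the same windows. A composite of an IRF with PU.1, the factor that sets up macrophage enhancers, was read as GGAANNGAAA. It was in 7 start regions (11.7%), at *Gbp3*, *Irf2*, *Irf5*, *Isg20*, *Jak1*, *Psmb8*, and *Trim25*, beside 2.45% of all start regions, and in 5 of 84 regions away from starts (5.95%), beside 3.96%. PU.1 alone, read as GAGGAAGT, was in 2 start regions (3.33%), at *Ifngr2* and *Irf5*, beside 3.22%, and in 6 regions away from starts (7.14%), beside 6.15%. The PU.1 letters hold the GGAA with which the composite begins, so the same bases can count for both, and a core followed by CT always counts as a core.

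GAS, to which STAT dimers bind, was read as TTCNNNGAA, which is its own reverse complement. It was in 10 start regions (16.7%, 9.31% to 28.0%), at *Bst2*, *Eif2ak2*, *Ifi35*, *Ifnar1*, *Irf1*, *Irf2*, *Irf9*, *Oasl1*, *Psmb8*, and *Trim25*, beside 6.18% of all start regions. Away from starts it was in 7 (8.33%), beside 8.98%. In the promoters, 10 of 39 genes held GAS (25.6%, 14.6% to 41.1%), beside 7.94% of protein-coding genes. All 10 had an open start, but so did 33 of the 39 genes. Over all protein-coding genes, 49.4% of those with GAS in the promoter had an open start, beside 57.7% of those without it.

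**Figure D4:**
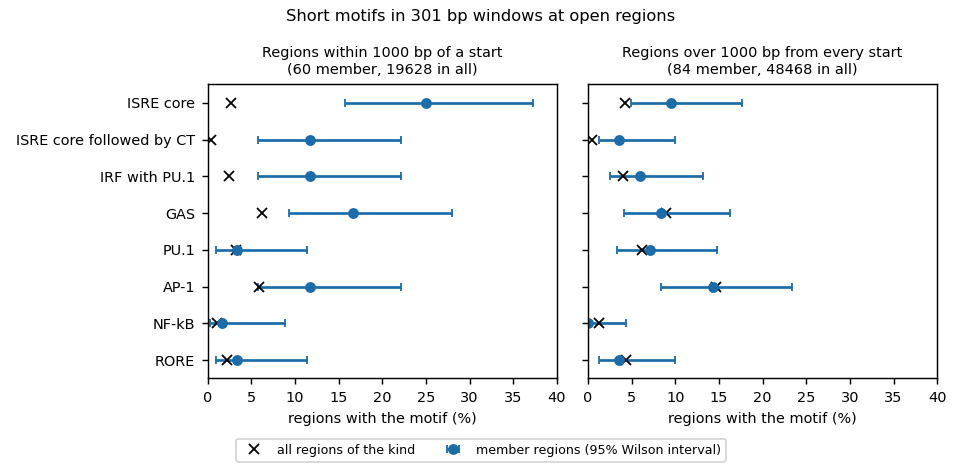
The horizontal axes give the share of open regions with each motif in a 301 bp window, in percent, with regions at starts on the left and regions away from every start on the right. Dots are the regions of the 39 genes with their 95% Wilson interval, and crosses are all regions of the same kind. On the left the crosses of the ISRE core, the core with CT, the IRF composite, and GAS lie below the interval, at 2.71%, 0.352%, 2.45%, and 6.18%, and on the right the crosses lie inside the interval except for the ISRE core and the core with CT.

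The motif of AP-1, read as TGANTCA (its own reverse complement), was in 7 start regions (11.7%, 5.77% to 22.2%), beside 5.88%. Away from starts it was in 12 regions (14.3%), beside 14.6%. Inside the start region itself AP-1 was found in 6 (10.0%, 4.66% to 20.1%), beside 4.07%. The motif of NF-kB, the mediator of Toll-like receptor signaling, was read as GGGANTTTC. It was in 1 start region (1.67%), at *Ifngr2*, beside 1.11%, and in 0 of 84 regions away from starts, with an upper Wilson bound of 4.37%, beside 1.31%. RORE, read as TAGGTCA, is the motif of the REV-ERBs and RORs. It was in 2 start regions (3.33%), at *Ifngr2* and *Irf5*, beside 2.17%, and in 3 regions away from starts (3.57%), at *Irf1*, *Trim25*, and *Usp18*, beside 4.32%. A match to these letters is not a bound site. For AP-1, NF-kB, RORE, and PU.1 alone, the share over all regions in the 301 bp window lay within the interval for the 39 genes. For AP-1 at starts it lay near the lower bound, and inside the region itself it lay below the interval.

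The start regions of these genes were poorer in CpG than start regions in general. CpG observed over expected, the number of CpG in a window over the number that its C and G would give by chance, had a median of 0.402 over the 60 start regions, while it was 0.711 over all start regions of protein-coding genes. In 1 region per gene the medians were 0.557 over 33 genes and 0.798 over 11963. A ratio of at least 0.6, as in CpG islands, was found in 16 of 33 genes (48.5%), beside 76.5%.

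The roles differed in this ratio. The 5 receptors and kinases lay between 0.633 and 0.856, and the 11 antiviral effectors between 0.0987 and 0.629, with medians of 0.773 and 0.227. The ends of the 2 groups nearly met, with *Jak1* (0.633) just above *Eif2ak2* (0.629). A ratio of at least 0.6 was found in 5 of 5 receptors and kinases and in 1 of 11 antiviral effectors. It was found in 76.5% of the 11963 protein-coding genes with a region within 1000 bp of the first base. The median of those genes, 0.798, lay near that of the receptors and kinases. The transcription factors lay on both sides, with *Irf7* at 0.307 and *Irf9* at 0.383 below *Irf2* at 0.753, *Irf5* at 0.821, *Stat2* at 0.909, *Irf3* at 0.944, and *Irf1* at 1.05. *Gbp3* lay at 0 and *Gbp2* at 0.120, and the 3 antigen processing genes lay between 0.551 and 0.635. *Usp18* (0.728), *Socs1* (0.629), *Eif2ak2*, *Irf2*, and *Ifih1* (0.805) had both the core in the window and a ratio of at least 0.6. The median ratio was 0.557 in the 11 genes with the core in the window of the nearest region and 0.592 in the 22 without it.

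**Figure D5:**
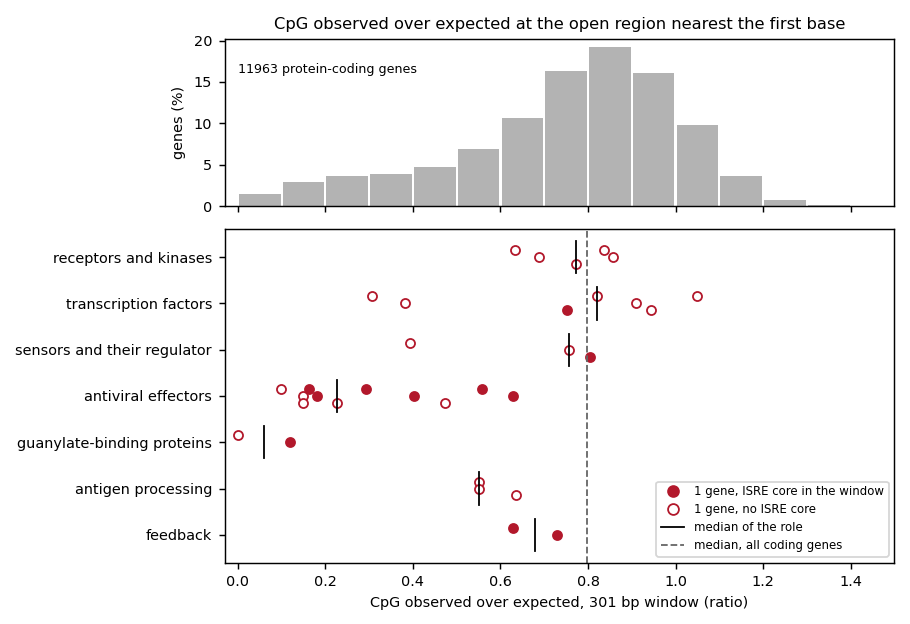
The horizontal axis gives CpG observed over expected in a 301 bp window at the open region nearest the first base, above as the distribution over 11963 protein-coding genes in percent and below as 1 symbol for each of the 33 genes, by role. Filled symbols have the ISRE core in the window, and short lines are the medians of the roles. The dashed line is the median of the 11963 protein-coding genes with a region near the first base, 0.798. The antiviral effectors reach up to 0.629, and the receptors and kinases begin at 0.633.

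The regions of these genes had a median width close to that of the whole list. Their median width was 162 bp (mean 187.0 ± 46.4 bp, SD over 157 regions), beside 160 bp over the whole list, and 72 had exactly 151 bp. The midpoint of the nearest region lay at a median of -55.5 bp from the first base (quartiles -104 and 50 bp). This was -36 bp over the 11963 protein-coding genes with a region within 1000 bp of the first base. The midpoint lay upstream of the first base in 21 of 33 genes (63.6%), beside 62.9%. Of the 157 regions, 60 were at a start (38.2%, beside 39.3% of all regions of protein-coding genes), 48 in introns (30.6%, beside 45.8%), 10 in exons (6.37%, beside 4.76%), 18 upstream (11.5%, beside 4.99%), and 21 downstream (13.4%, beside 5.12%). These places were set by unlike rules. A region of the 39 genes was placed relative to these genes only, so 13 regions near the start of another gene were not counted as starts. A region of all protein-coding genes was placed at whichever such gene ranked first, with starts ranked before all else. The shares of places can therefore not be compared directly. The genes held a median of 3 regions (quartiles 2 and 5), beside 2 (0 and 4), at a median length of 15873 bp, beside 15420.5 bp. They had a median of 4 annotated starts, beside 2. Counted around the first base of the gene alone, 33 of 39 genes had an open region there, beside 53.5% of protein-coding genes.

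The other genes of the pathway were taken from a list of 46, and 37 of these had an open start (80.4%, 66.8% to 89.3%), beside 57% of protein-coding genes. None of the 6 ligand genes *Ifnb1*, *Ifng*, *Ifne*, *Ifna2*, *Ifna4*, and *Ifnk* had an open start, and 5 of them had no region within 5 kb. For *Ifnb1*, which encodes the type I interferon beta, the nearest midpoint was at 6961.5 bp, past the end of the gene, and *Ifnk* had 3 regions, none at a start. All 6 sensors and adaptors were open, among them *Mavs*, *Tbk1*, and *Tmem173* (STING), as were *Irf4* and *Irf8* and the regulators *Socs3*, *Ptpn6*, and *Pias1*. Of 15 further effectors 14 were open, with *Oas1a* as the exception, of 8 GTPases 7, without *Tgtp1*, and of 6 antigen processing genes 5, without *Psmb10*. *Oas1a* and *Tgtp1* have near-identical relatives beside them, and how the authors' alignment treated reads that fit several copies is not given in the sources used here.

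The sample titles name the cells KC, for Kupffer cells. The authors' term LMs takes in Kupffer cells and monocyte-derived macrophages. The cell type was checked by markers in the same way, as whether a start was open. The share over all protein-coding genes was 57%. For macrophages and Kupffer cells this held for 6 of 10 (*Clec4f*, *Timd4*, *Cd5l*, *Cd68*, *Spi1*, and *Emr1*), and not for *Vsig4*, *Marco*, *Csf1r*, and *Lyz2*. For hepatocytes it held for 5 of 6 (not *Serpina1a*), for endothelial cells for 6 of 6, for stellate cells for 3 of 6, and for lymphocytes and plasmacytoid dendritic cells for 0 of 6. The macrophage share is near that of all protein-coding genes and so does not set macrophages apart in this list. Most cell types express interferon receptors, and in a pooled list the regions of LMs and those of other cells in the preparations cannot be told apart. The part of these cells in the regions at the interferon genes was not tested.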

How the data were processed

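Fast-ATAC-Seq libraries of LMs (18, in 6 groups of 3) were processed by the authors with a published ATAC-Seq pipeline. Adapters were trimmed, reads were aligned to mm9 with Bowtie, aligned reads of biological replicates were merged, and peaks were called. The notes also name HOMER. The peak caller and its threshold are not given in the sources used here. The deposited values are the coordinates of each region, with starts counted from 0, and are given here from 1. No region passed the end of its chromosome in NCBIM37, the assembly of mm9, and 136 regions on random sequences were not searched.

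Genes, starts, and exons came from GENCODE, and sequences from the same assembly. The first gene model was used for *Psmb9*, whose symbol has 2, and *Spi1* was found by an older symbol. Promoters were searched on the strand of the gene and its complement. All members are accounted for by role. Those with most regions, with none, without an open start, or sharing a region are described singly. The genes and lists were chosen with earlier results of these data known. An item of the list of other pathway genes is not reported here. Intervals are Wilson intervals at 95% and cover counting error only. The counting and motif steps were tested on simulated regions and sequences. Other flanks, distances, widths, windows, and motifs were tried. Python 3.11.15, NumPy 2.4.6, SciPy 1.17.1, pandas 2.3.3, and matplotlib 3.10.9 were used.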

Additional observations from a re-analysis of the deposited data

How the results depend on the processing

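No paired analysis was possible because the deposited list gives no value for any library, and for the same reason no replicate could be left out. Of 47 alternatives over 14 results, 33 moved the value by less than the range allowed for it (a factor of 1.5 for a count, the 95% Wilson interval for a share, and 1 SD over genes or regions for a median), 4 of the 47 being chosen after the data were seen. The 157 regions became 93 without a flank and 51 with regions of at least 200 bp only. The number of genes with no region, 2, became 11 without a flank, 4 with 1000 bp, 1 with 10000 bp, and 9 with regions of at least 200 bp. With such regions the median density fell from 1.30 to 0.422 per 10 kb, less than the SD over genes, beside 0 for protein-coding genes, and 20 genes had an open start, beside 34.8% of protein-coding genes. The share of regions at a start was 30.6% within 500 bp and 48.4% within 2000 bp. The share of start regions with the ISRE core was 40% in windows of 500 bp on both sides, beside 9.98% of all start regions. With CT in the 301 bp window it was 11.7%, beside 0.352%. Away from starts, the wider window gave 17.9% (11.1% to 27.4%), beside 13.3% of all such regions, which lies inside that interval. With CT in the 301 bp window the share away from starts was 3.57%, beside 0.454%. With CT the share of promoters was 20.5%. Wider windows hold more matches and the longer motif fewer, by construction. Without *Ifngr2*, *Jak1*, and *Irf2* there were 117 regions. The depth is unknown, so a start without a region is not shown to be closed.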

Other observations

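Over all protein-coding genes, those with the ISRE core in the promoter had an open start in 403 of 846 cases (47.6%), beside 57.4% of the 21534 without it. With CT following, the share was 59.6% of 89 genes, beside 57.0% of the 22291 without that longer match. Among the 39 interferon genes, 12 of the 15 with the core (80%) and 21 of the 24 without it (87.5%) had an open start. The open starts of protein-coding genes with the core in the window of the nearest region were somewhat poorer in CpG (median ratio 0.710 over 308 genes) than those without (0.799 over 11655 genes).

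Neighboring members of the *Ifit* and *Oas* families were uneven. On chromosome 19, *Ifit1* and *Ifit2* both had a region with its midpoint at -47.5 bp from the first base, and *Ifit3*, which lies between them, had none at its start. On chromosome 5, *Oasl1* had 6 regions and *Oasl2*, the gene next to it, had 0. *Oas2* had 1 region, at its start, and *Oas3* beside it had no region at its own start. The genes of each family are related copies, and how reads that fit several copies were treated is not given in the sources used here.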
